A study of Mus musculus with 4 samples.

Results

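The cells described here carried transcripts of both Isl1, a LIM homeobox factor of second heart field progenitors, and Nkx2-5, a homeobox factor of the cardiac lineage. Their contractile transcripts were limited by the selection, and contraction itself was not measured. They were selected on raw counts of unique molecular identifiers (UMIs, each standing for one captured transcript) in the E9.5 and E10.5 libraries. A cell was kept with at least 2 UMIs of Isl1 and at least 1 of Nkx2-5, with fewer than 3 of the 6 contractile genes Tnnt2, Myl4, Myl7, Actc1, Ttn and Myh6 at 2 or more UMIs, and with no UMI of the endothelial cadherin Cdh5 or of the branchiomeric muscle factor Lhx2. This gave 200 cells in the E9.5 library and 250 in the E10.5 library, that is 450 of the 12094 retained cells of both libraries and of the 22662 cells of the series. They are called Isl1 Nkx2-5 progenitors below.

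The series followed the mesoderm that builds the heart and the muscles of the pharynx by single-cell RNA sequencing over 4 stages, E8.0 and E8.25 for the early and E9.5 and E10.5 for the late libraries. All cells came from Swiss Webster mouse embryos of the genotype Mesp1Cre;Rosa26-GFPflox/+, in which Cre made in the early Mesp1 domain switches on GFP for good. GFP therefore marks every descendant of the Mesp1 lineage and no single cell type. The E9.5 and E10.5 tissue was the pharyngeal apparatus with the heart, while at E8.0 and E8.25 the upper body was taken. Each stage was 1 library of pooled embryos, sorted for GFP and against the dead-cell dye DAPI. The stage and the library therefore cannot be told apart, and intervals on stage differences cover counting error only.

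The second heart field is a reserve of dividing progenitors in the pharyngeal mesoderm that feeds cells into the elongating heart tube. Its anterior portion, marked by Tbx1, Fgf8 and Fgf10, contributes to the right ventricle and outflow tract, and its posterior portion, marked by Tbx5, Osr1, Foxf1 and Wnt2, to the atria and the inflow region. The same mesoderm also gives rise to branchiomeric muscles of the face and neck, through cells that express Lhx2, Msc and Myf5. FGF, Wnt and hedgehog signals keep progenitors dividing, and BMP signals favour entry into the heart muscle programme.

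The E9.5 library held 4055 cells and 74920880 UMIs, and the E10.5 library 8070 cells and 142850521 UMIs. The 2 libraries shared 41 cell barcodes, and no shared barcode was a progenitor in both. Summed over cells, the progenitors held 3669577 UMIs (E9.5) and 4644454 UMIs (E10.5). Their median depth was close, at 17138.5 UMIs and 4046 genes per cell at E9.5 against 17214.5 UMIs and 4160.5 genes at E10.5. Mitochondrial transcripts made up a median of 1.57% and 2.51% of their UMIs. Levels are given as CPM, the UMIs of a gene in the summed cells of a library scaled to a common total. In such a sum, fewer expressing cells and less RNA per cell cannot be told apart.

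The genes that selected the cells are given as a description only. Isl1 ran from 2 through a median of 4 to 15 UMIs per cell at E9.5, and from 2 through 5 to 20 at E10.5. Nkx2-5 ran from 1 through a median of 2 to 17 UMIs at E9.5, and from 1 through 3 to 31 at E10.5. Many cells sat at the edge of the selection, with exactly 1 UMI of Nkx2-5 in 76 cells at E9.5 against 90 cells at E10.5. Just outside it lay 410 and 802 cells that met every other condition but had no UMI of Nkx2-5, and 55 and 52 cells with a single UMI of Isl1. The progenitors were not free of contractile transcripts: Myl7, the atrial myosin light chain, had a UMI in 71.5% of the cells at E9.5 against 44.8% at E10.5. Cells with exactly 3 contractile genes at 2 or more UMIs, the nearest on the contractile side, numbered 19 and 11. In the RefSeq annotation of GRCm38.p6, Isl1 lies at chr13:116298270-116309688 and Nkx2-5 at chr17:26838664-26844988.

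Markers of other cell types were low in the progenitors with exceptions. The 8 endothelial markers outside the selection summed to 79.0 CPM at E9.5 against 74.9 CPM at E10.5, and to 1476 and 1582 CPM in cells with at least 2 UMIs of Cdh5, a comparison set chosen after values were seen. Pecam1, Tie1 and Tek were at 0 at E9.5 and under 2 CPM at E10.5. The 8 branchiomeric muscle markers summed to 158.6 and 130.9 CPM, mostly Tcf21, and Myf5 stood at 0.545 and 0.431 CPM. Of 7 neural crest genes, Sox10, Foxd3 and Tfap2b were at 0 in both libraries, and the list's 152.6 and 160.2 CPM were almost all Crabp1. Only 2 of that list had enough UMIs for the stage comparison, and of these Dlx5 was counted as higher at E10.5. The exceptions were blood, somatic mesoderm and, at E10.5, epicardial and endodermal transcripts, which are given with the stage comparison. Among somatic mesoderm markers, Hand1, also a heart factor, was at 38.4 and 213 CPM. The epicardial list, at 14.7 and 57.5 CPM, stayed below its sum in all other retained cells (90.8 and 108.7 CPM). Other heart factors were detected in part of the cells, Mef2c (103 and 96.5 CPM) with a UMI in 58% and 42% and Gata4 in 28% and 21.2%, while Cdh5 cells had a UMI of Mef2c in 64.1% and 68.4%.

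Of the retained cells, the progenitors were 4.94% in the E9.5 library (95% exact binomial interval 4.29 to 5.65) and 3.11% in the E10.5 library (2.74 to 3.51), a log2 ratio of -0.67 (-0.94 to -0.39). With every cell thinned to 5000 UMIs before the selection, the shares were 1.37% (55 cells) and 1.26% (101 cells), a log2 ratio of -0.12 whose interval ran from -0.61 to 0.38 and so included no difference. Blood cells enlarged the E10.5 denominator, since 1108 retained cells there had over 20% haemoglobin UMIs against 2 at E9.5. Without them the shares were 4.94% and 3.58%. The lower share at E10.5 lay in cells with a contractile gene at 2 or more UMIs. Progenitors with none of the 6 contractile genes at 2 or more UMIs were 87 of 4052 cells (2.15%) and 177 of 8042 cells (2.20%), a log2 ratio of 0.036 (-0.34 to 0.42). Those with 1 such gene were 85 cells (2.10%) and 49 cells (0.609%), and those with 2 were 28 cells (0.691%) and 24 cells (0.298%). The same selection found 371 cells (4.90%) at E8.0 and 124 cells (4.20%) at E8.25, in libraries of deeper cells and other tissue.

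To see how the progenitors differed between the stages, 10755 genes with 20 or more UMIs over both sums were compared, leaving out the 10 selecting genes. A gene was counted when it differed at least 2-fold and its interval left out no difference. Of these genes, 696 (6.47%) were higher and 235 (2.19%) were lower at E10.5, and the median log2 ratio of all was 0.04. In all other retained cells of the libraries, 222 of the 696 and 119 of the 235 also differed at least 2-fold in the same direction, with no condition on an interval. The share of all 10755 genes that did so there is not given. The remaining genes are therefore not read as particular to the progenitors. The largest ratios belonged to blood transcripts.

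**Figure D1:**
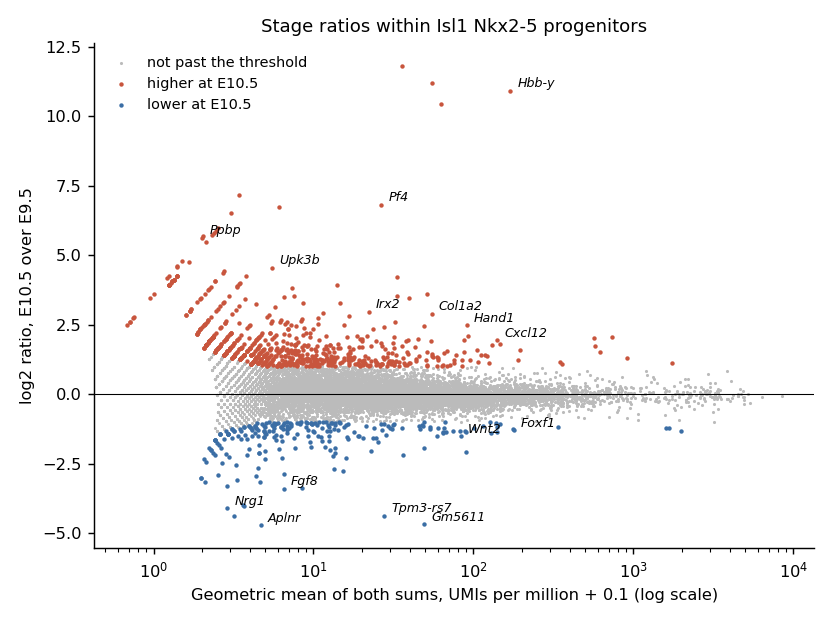
Each point is 1 of the 10755 genes compared within the Isl1 Nkx2-5 progenitors, with the geometric mean of its E9.5 and E10.5 levels (CPM + 0.1, log axis) against its log2 ratio of E10.5 over E9.5. Red points (696) were at least 2-fold higher and blue points (235) at least 2-fold lower with intervals off 0, a gene at 0 is drawn at the bound set by 3 UMIs, and the labelled genes were picked after values were seen, with haemoglobin Hbb-y far above the rest.

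Of the 12 genes named for the largest ratios, 8 are haemoglobins or red cell genes. Embryonic haemoglobin Hbb-y was at 3.82 CPM at E9.5 against 7382 at E10.5, and Hba-x at 1.09 CPM at E9.5 against 2519.8 at E10.5. All 7 erythroid markers were higher at E10.5, among them the haem synthesis gene Alas2 at least 27.4-fold from 0 UMIs. The same transcripts were in other cells too. Hba-x had a UMI in 2.0% of progenitors at E9.5 against 100% at E10.5, and in 1.76% and 100% of Cdh5 cells, at median depths of 17544 and 18799 UMIs in the latter. One progenitor of 44227 UMIs held 33.6% of all Hba-x UMIs at E10.5. Pf4 and Ppbp, chemokines of platelets and their precursors, came almost wholly from a single E10.5 cell: 1243 of 1269 Pf4 UMIs (98.0%) and 186 of 188 Ppbp UMIs (98.9%). The part of free RNA or of doublets in these values was not tested. The metal-binding Mt2 (0.545 and 58.1 CPM) and the transcriptional cofactor Cited4 (0 and 19.8 CPM) completed the 12. Mt2 had UMIs in 77 and Cited4 in 33 of the E10.5 progenitors, and part of these UMIs lay in cells that also held many haemoglobin UMIs. Whether they came with blood RNA was not tested. The cell of 44227 UMIs held 31.5% of the Cited4 UMIs, and a cell of 62578 UMIs held 37.8% of the Mt2 and 19.7% of the Hba-a2 UMIs. In all other cells the log2 ratios of Mt2 and Cited4 were 9.03 and 4.19.

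The genes with the largest ratios in the other direction included receptors and signals of early progenitors. Aplnr, the apelin receptor, was at 22.6 CPM at E9.5 against 0.861 at E10.5, with UMIs in 34 of 200 and 4 of 250 cells (log2 ratio -4.71, 95% interval -6.62 to -3.30). The growth factor Nrg1 was at 11.2 CPM at E9.5 against 0.646 at E10.5 (log2 ratio -4.11, 95% interval -6.45 to -2.46), and Fgf8 at 20.7 CPM at E9.5 against 1.94 at E10.5 (log2 ratio -3.42, 95% interval -4.60 to -2.42). Thus a minority of cells carried these signals at E9.5 and nearly none at E10.5. Hopx, a homeodomain-only cofactor of the cardiac lineage, stood at 26.98 and 2.58 CPM, and the vasoactive peptide gene Adm at 14.2 and 0.861 CPM. Also among the 12 were Cxcl13 (33.8 and 5.17 CPM), Igfbp7 (39.8 and 5.81 CPM), Upp1 (13.6 and 0.646 CPM), Ndufa4l2 (13.6 and 0.861 CPM) and Pnliprp1 (13.4 and 1.51 CPM). The other two, Gm5611 (249 and 9.69 CPM) and Tpm3-rs7 (125 and 6.03 CPM), are annotated as pseudogenes, and whether their UMIs came from other loci was not tested. Their ratios in all other cells were as large, at -4.66 and -4.90 on the log2 scale. There Fgf8 (-3.39) and Adm (-3.91) were also lower at E10.5, and by less Nrg1 (-1.77), Hopx (-1.80), Aplnr (-0.888), Upp1 (-1.38), Ndufa4l2 (-2.23) and Pnliprp1 (-1.34). Cxcl13 (0.228) and Igfbp7 (0.418) were not. Isl1 cells without a UMI of Nkx2-5 had Aplnr in 18.8% and 2.49% and Fgf8 in 16.8% and 2.74%. The lower signals were thus not limited to the progenitors.

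Of 11 posterior second heart field genes, 5 were counted as lower at E10.5 and none as higher, and the median log2 ratio was -0.75. Foxf1, a forkhead factor of splanchnic mesoderm, was at 279.6 CPM at E9.5 against 113 at E10.5 (log2 ratio -1.30, 95% interval -1.46 to -1.15). The ligand gene Wnt2 was at 141 CPM at E9.5 against 49.1 at E10.5 (log2 ratio -1.52, 95% interval -1.75 to -1.29), and the nuclear receptor Nr2f2 at 172 CPM at E9.5 against 77.3 at E10.5 (log2 ratio -1.15, 95% interval -1.34 to -0.96). The retinoid-responsive Hoxb1 (14.7 and 3.88 CPM) was also counted as lower. Osr1 (179 and 106 CPM), Tbx5 (44.7 and 31.7 CPM) and the retinoic acid synthase gene Aldh1a2 (67.9 and 41.3 CPM) were lower by less than 2-fold. Meis2, a cofactor of Hox proteins, lay the other way at 252 and 432 CPM, also within 2-fold. Foxf1 and Wnt2 had log2 ratios of -0.996 and -1.74 in all other cells, so their lower level was not limited to the progenitors.

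Anterior second heart field genes were divided, with 2 of 14 measured genes higher, 4 lower and a median of -0.62. Besides Fgf8, the lower genes were Fgf10 (20.7 and 10.1 CPM), the Iroquois factor Irx3 (99.7 and 34.9 CPM) and the repressor gene Prdm1 (7.63 and 1.29 CPM). Forkhead factor Foxc1 was higher, at 12.5 CPM at E9.5 against 41.8 at E10.5 (log2 ratio 1.74, 95% interval 1.27 to 2.23), as was the ligand gene Wnt11 (2.18 and 5.38 CPM). Tbx1 stood at 55.9 and 32.1 CPM, less than 2-fold lower.

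Of 13 genes picked from those the study named for its multilineage primed progenitors, 7 were higher at E10.5 and 2 lower, with a median of 1.03. The study chose its genes on these libraries, so the count is not independent evidence of a direction. It also depends on which genes were picked, since Fgf8, Fgf10, Irx3 and Foxf1, named there too, were lower and stand in the field lists here. The Iroquois factor Irx2 was at 7.90 CPM at E9.5 against 61.4 at E10.5 (log2 ratio 2.96, 95% interval 2.40 to 3.56), and its neighbour Irx1 at 22.6 and 65.2 CPM. Hand2, a basic helix-loop-helix factor of heart and pharyngeal arch, was at 47.7 CPM at E9.5 against 127 at E10.5 (log2 ratio 1.41, 95% interval 1.17 to 1.66). Sema3c, a guidance signal of the outflow tract, was at 23.2 and 56.6 CPM, Gata3 at 20.4 and 46.3 CPM, Mpped2 at 85.02 and 186 CPM and the non-canonical ligand Wnt5a at 44.96 and 91.7 CPM. The 2 lower genes were Aplnr and Nrg1, described above. Bmp4 (203 and 189 CPM), Gata5 (78.8 and 69.3 CPM) and Tcf21 (90.7 and 89.1 CPM) lay within 2-fold. The study described Aplnr, Nrg1 and Irx1 to Irx5 as falling over time in its cluster, and Hand2, Gata3, Gata5, Gata6, Bmp4 and Sema3c as rising. The list thus joined genes of opposite described directions, and its median has no single reading. In the cells here, selected otherwise than that cluster, Irx1 and Irx2 were higher at E10.5, against the described fall. Bmp4, Gata5 and Gata6 were counted in neither direction.

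**Figure D2:**
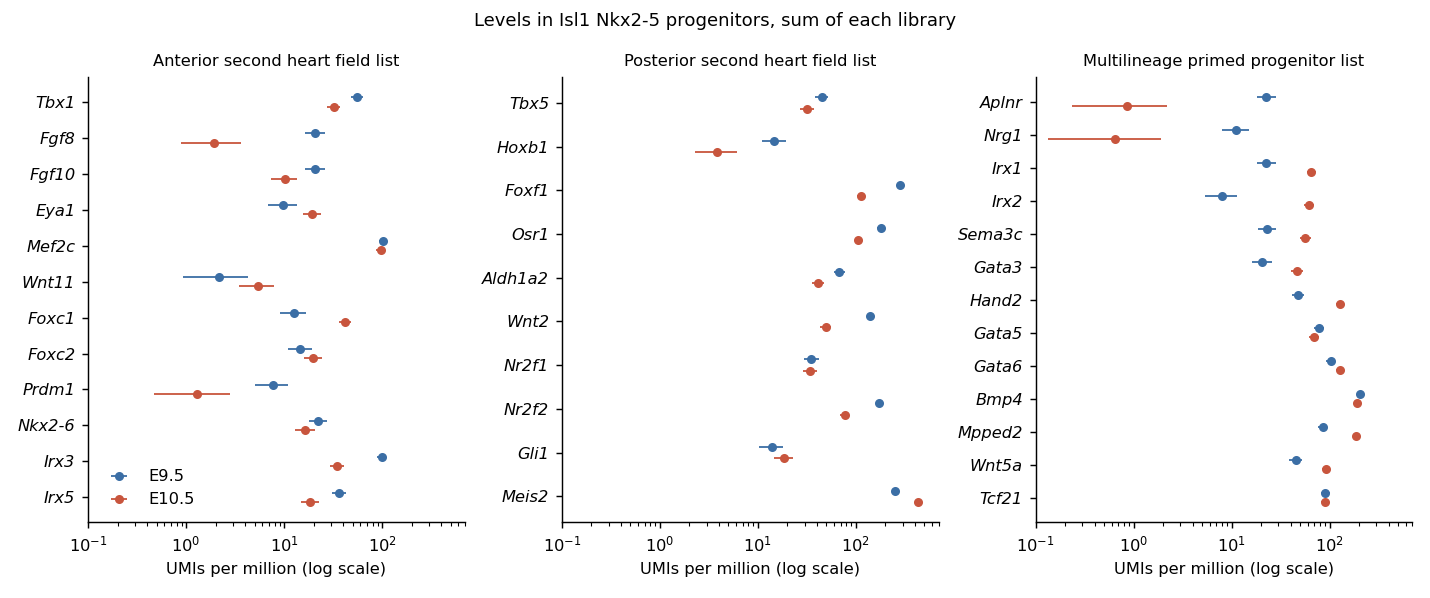
Levels of genes of the anterior, posterior and multilineage primed progenitor lists in the Isl1 Nkx2-5 progenitors, as CPM of each library's sum (log axis) with exact Poisson 95% intervals, E9.5 in blue and E10.5 in red. Most posterior genes lie further left at E10.5, Irx1, Irx2 and Hand2 lie further right, and Aplnr and Nrg1 lie below 1 CPM at E10.5.

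Among 15 heart transcription factors, 5 were higher at E10.5 and none lower, with a median of 0.30. Hand1 was at 38.4 CPM at E9.5 against 213 at E10.5 (log2 ratio 2.47, 95% interval 2.21 to 2.74), while in all other cells its log2 ratio was -1.11. Tbx20, a T-box factor of differentiating heart cells, was at 11.99 CPM at E9.5 against 63.1 at E10.5 (log2 ratio 2.40, 95% interval 1.93 to 2.89) and had a UMI in 33 of 200 and 89 of 250 cells. Tbx2 (8.18 and 20.02 CPM) and the muscle methyltransferase gene Smyd1 (8.72 and 19.6 CPM) were the others besides Hand2. The GATA factors were not among them: Gata4 was at 33.2 and 22.2 CPM, Gata5 at 78.8 and 69.3 CPM and Gata6 at 103 and 126 CPM. Myocd, a coactivator of muscle genes, stayed at 2.998 and 4.09 CPM with an interval of the ratio from -0.70 to 1.67.

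Signalling genes were counted in both directions. In the FGF pathway 1 of 15 measured genes was higher, the ligand gene Fgf9 (2.45 and 11.2 CPM), and 3 were lower, Fgf8, Fgf10 and the feedback inhibitor Spry2 (31.6 and 14.2 CPM). In the BMP pathway the ligand gene Bmp2 (3.54 and 10.3 CPM) and the response gene Id4 (3.82 and 19.6 CPM) were higher, and the response genes Msx1 (45.2 and 19.6 CPM) and Msx2 (40.6 and 13.6 CPM) were lower, of 19 measured. The BMP receptor genes Bmpr1a (49.3 and 52.1 CPM) and Bmpr2 (22.3 and 36.8 CPM) were counted in neither direction. Of 23 Wnt genes, 6 were higher, among them Wnt5a, the receptor Fzd1 (25.1 and 53.8 CPM), Rspo3 (5.995 and 13.6 CPM) and the inhibitor Dkk2 (2.18 and 9.04 CPM). The 3 lower ones were Wnt2, the inhibitor Sfrp5 (9.54 and 3.23 CPM) and Lef1, the nuclear partner of beta-catenin (42.8 and 14.2 CPM). Notch genes gave 4 higher of 8 and none lower: Jag1 (41.4 and 83.5 CPM), Notch1 (2.73 and 7.11 CPM), Nrarp (2.45 and 7.75 CPM) and Heyl (1.09 and 4.31 CPM). Of 10 hedgehog genes only the co-receptor gene Boc was counted (2.998 and 6.89 CPM), and the hedgehog target Ptch1 was at 101 and 88.7 CPM. Of 11 retinoic acid genes, the reductase gene Dhrs3 was higher (4.09 and 8.18 CPM) and the retinol dehydrogenase gene Rdh10 lower (46.6 and 21.3 CPM).

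The guidance signals had larger ratios. Cxcl12, a chemokine, was at 72.2 CPM at E9.5 against 276 at E10.5 (log2 ratio 1.94, 95% interval 1.74 to 2.13), while its receptor genes Cxcr4 (3.27 and 1.94 CPM) and Ackr3 (6.81 and 8.18 CPM) stayed low. The semaphorin co-receptor Nrp2 was at 23.7 and 77.5 CPM and the semaphorin receptor Plxna2 at 17.99 and 8.40 CPM. With Sema3c, this made 3 of 9 higher and 1 lower.

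Matrix genes were higher in collagens of the fibrillar type. Of 16 measured, 5 were higher and 1 lower, with a median of 0.56. Col1a2 was at 20.2 CPM at E9.5 against 148 at E10.5 (log2 ratio 2.88, 95% interval 2.53 to 3.25), Col3a1 at 44.96 and 192 CPM, Col1a1 at 15.5 and 64.4 CPM and Col2a1 at 19.6 and 73.4 CPM. Has2, the hyaluronan synthase of cardiac jelly, was at 4.63 and 12.5 CPM, and the hyaluronan link protein gene Hapln1 was lower (46.9 and 17.01 CPM). Basement membrane collagens Col4a1 (32.7 and 46.1 CPM) and Col4a2 (19.3 and 24.1 CPM) lay within 2-fold. The 4 fibrillar collagens were thus higher together while the 2 basement membrane chains were not counted.

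Smooth muscle genes gave 3 higher of 6 and none lower: Tagln (39.8 and 116 CPM), Myl9 (50.7 and 111 CPM) and Cnn1 (4.36 and 12.1 CPM). The direction of Tagln was lost when cells were thinned to equal depth and selected again, which left 55 and 101 cells (log2 ratio -0.0024), and that of Cnn1 when cells with any contractile gene at 2 or more UMIs were left out (-0.071). Acta2 stood at 64.6 and 88.3 CPM. Of 16 measured contractile genes outside the selection, 4 were higher and none lower, all at low level: Smpx (8.45 and 21.3 CPM), Myh7 (2.18 and 6.89 CPM), Cryab (1.09 and 4.52 CPM) and Pln (0.273 and 4.09 CPM). The embryonic troponin Tnni1 (178 and 229.5 CPM) and Tpm1 (475 and 527 CPM) had the most UMIs of that list and lay within 2-fold. In all other cells, where the tissue composition also differed, these contractile genes were lower at E10.5, Tnni1 with a log2 ratio of -1.57.

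Cell cycle genes did not pass the 2-fold limit. None of 12 S phase and 12 G2/M genes was counted. The S phase median was -0.43, with Mcm6 at 158 and 99.9 CPM (log2 ratio -0.66, 95% interval -0.84 to -0.48) and Rrm2 at 454 and 330.1 CPM, and 12 of 12 genes had ratios below 0. The S phase list summed to 2279 and 1749 CPM in the progenitors and to 2010 and 1521 CPM in all other cells. Its lower level was thus not limited to the progenitors. The G2/M median was 0.00, with Top2a at 323 and 340.0 CPM and Mki67 at 62.4 and 103 CPM. The cell cycle inhibitor Cdkn1c was at 528 and 765 CPM (log2 ratio 0.54, 95% interval 0.46 to 0.62).

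Markers of neighbouring tissues also differed between the stages. Of 5 epicardial markers measured, 4 were higher at E10.5: Upk3b (1.09 and 25.4 CPM, in 3 of 200 and 48 of 250 cells), Wt1 (2.45 and 11.2 CPM), Krt19 (1.91 and 5.81 CPM) and Lrrn4 (3.54 and 7.97 CPM). Their list summed to 14.7 CPM at E9.5 against 57.5 CPM at E10.5, with Msln at 0 in both, and Lrrn4 lost its direction in cells without contractile genes (-0.071). Epcam (2.998 and 13.6 CPM) and Cldn6 (0 and 4.95 CPM), epithelial genes of the endoderm list, were higher as well, at a list sum of 5.2 and 25.4 CPM. Of 6 somatic mesoderm markers, Hand1, Twist1 (13.1 and 33.6 CPM) and Epha3 (2.73 and 10.8 CPM) were higher, and Msx1 and Msx2 lower. Tlx1 (35.2 and 7.11 CPM) was the only one of 5 branchiomeric markers counted, and it was lower. Macrophage marker Fcer1g was higher, but 23 of its 31 UMIs at E10.5 lay in the cell that held the Pf4 UMIs, and Csf1r and Cx3cr1 were at 0. The part of such cells in the stage differences was not tested.

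The early libraries placed these levels in a longer row, although tissue and depth differed there. Aplnr was at 109 and 87.7 CPM at E8.0 and E8.25, and Fgf8 at 159.8 and 151 CPM, so both were highest in the early cells and lowest at E10.5. Several genes were low early and high late. Bmp4 was at 40.5 and 62.8 CPM before 203 and 189 CPM, Cxcl12 at 3.28 and 7.16 CPM before 72.2 and 276 CPM, and Col3a1 at 3.91 and 16.2 CPM before 44.96 and 192 CPM. Among posterior genes, 3 were highest at E9.5. Osr1 was at 20.6 and 26.6 CPM before 179 and 106 CPM, Foxf1 at 40.4 and 40.5 CPM before 279.6 and 113 CPM, and Wnt2 at 40.5 and 23.3 CPM before 141 and 49.1 CPM. Tbx20 was lowest at E8.25, at 36.1 and 2.66 CPM early, and Hand1 likewise at 68.7 and 11.9 CPM.

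The next question was how the progenitors differ from their neighbours of the same libraries. Raw UMIs were summed per library and class, and edgeR's quasi-likelihood test compared 4 sums, with the library as a block and Benjamini-Hochberg adjustment over all genes tested. The 2 libraries were the only replicates of a class difference, which left 1 residual degree of freedom. The limits that define the classes split cells on measured genes, so genes expressed together with those genes differed in part through the selection itself. Values below are CPM at E9.5 and at E10.5, progenitors first.

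Contractile Isl1 Nkx2-5 cells met the same selection but had 3 or more of the 6 contractile genes at 2 or more UMIs. They numbered 89 and 82 cells. Of 10283 genes, 906 (8.81%) were higher and 1250 (12.2%) lower in the progenitors, and DESeq2 called 123 and 458. Of edgeR's calls, 140 and 576 were also at least 2-fold in both libraries. All 22 contractile genes outside the selection and all 6 smooth muscle genes measured were lower in the progenitors, with medians of -5.53 and -3.55, as cells chosen for few contractile genes must largely be. Troponin gene Tnnc1 was at 11.7 and 8.83 CPM against 1060.5 and 1250.3 CPM (log2 fold change -6.86, SE 0.16, edgeR adjusted p = 1.7e-13), and Acta2 at 64.6 and 88.3 CPM against 3011 and 3284 CPM. Separations were smaller for Tnni1, at 178 and 229.5 CPM against 1620.2 and 1946 CPM, and for Des, at 43.1 and 57.9 CPM against 250.4 and 388 CPM. Tnni1 had a UMI in 70% and 80.8% of progenitors, and in 50.6% and 51.6% of Cdh5 cells.

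Cardiac regulators were graded in the same direction. Of 15 heart transcription factors, 12 were lower in the progenitors and 1 higher, and DESeq2 called 7 and 0. Smyd1 was at 8.72 and 19.6 CPM against 123 and 239 CPM (log2 fold change -3.72, SE 0.17, edgeR adjusted p = 3.9e-10) and Myocd at 2.998 and 4.09 CPM against 49.96 and 42.5 CPM (log2 fold change -3.70, SE 0.28, edgeR adjusted p = 1.2e-07). Mef2c (103 and 96.5 CPM against 550.2 and 476 CPM) and Tbx20 (11.99 and 63.1 CPM against 53.9 and 481 CPM) were likewise far lower. GATA factors differed less, with Gata6 at 103 and 126 CPM against 159 and 251 CPM (log2 fold change -0.85, SE 0.14, edgeR adjusted p = 0.00048). The exception was Tbx3, at 39.5 and 36.4 CPM against 16.3 and 13.2 CPM (log2 fold change 1.32, SE 0.23, edgeR adjusted p = 0.00071).

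The progenitors had more cell cycle transcripts than the contractile cells. All 12 S phase genes and 11 of 12 G2/M genes were higher, with medians of 0.79 and 0.71 and none lower. DESeq2 called 6 and 2 of them. Without the library block edgeR called 0 of either list, with 5 and 3 at an unadjusted p below 0.05. Rrm2, a subunit of ribonucleotide reductase, was at 454 and 330.1 CPM against 228 and 78.1 CPM (log2 fold change 1.43, SE 0.19, edgeR adjusted p = 4.7e-05), and Mcm5 of the replicative helicase at 149 and 117 CPM against 74.7 and 42.5 CPM (log2 fold change 1.16, SE 0.16, edgeR adjusted p = 0.00011). Cyclin gene Ccnd1 was at 169.5 and 157 CPM against 80.3 and 78.8 CPM (log2 fold change 1.00, SE 0.14, edgeR adjusted p = 0.00014). The inhibitors went the other way, Cdkn1c at 528 and 765 CPM against 1556 and 2698 CPM (log2 fold change -1.73, SE 0.09, edgeR adjusted p = 1.3e-09) and Cdkn1a at 2.45 and 2.80 CPM against 28.6 and 14.6 CPM.

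Progenitor genes were higher in some fields and lower in others. Posterior second heart field genes gave 6 of 11 higher, led by Foxf1 at 279.6 and 113 CPM against 81.4 and 18.1 CPM (log2 fold change 2.03, SE 0.19, edgeR adjusted p = 1.3e-06) and Aldh1a2 at 67.9 and 41.3 CPM against 20.8 and 11.2 CPM. Tbx5 (44.7 and 31.7 CPM against 63.4 and 51.6 CPM) and Wnt2 (141 and 49.1 CPM against 223 and 125 CPM) were lower. Anterior genes gave 4 higher and 4 lower of 13: Irx3 (99.7 and 34.9 CPM against 35.4 and 1.39 CPM), Irx5, Foxc1 and Tbx1 (55.9 and 32.1 CPM against 26.4 and 14.6 CPM) were higher, and Fgf8 (20.7 and 1.94 CPM against 53.3 and 16.04 CPM), Wnt11 and Mef2c were among the lower ones. The hedgehog genes Ptch1 (101 and 88.7 CPM against 50.5 and 29.3 CPM), Gli1 and Smo were higher in the progenitors, 3 of 9 with none lower. Of the BMP genes, Bmp2 (3.54 and 10.3 CPM against 39.3 and 57.2 CPM) and Bmp4 (203 and 189 CPM against 295 and 419.8 CPM) were among 6 lower of 18 with 1 higher, Id3. The semaphorin co-receptor genes Nrp1 (31.1 and 53.6 CPM against 116 and 125 CPM) and Nrp2 (23.7 and 77.5 CPM against 126 and 388 CPM) were lower too. Haemoglobin transcripts were lower in the progenitors at E10.5, Hbb-y at 3.82 and 7382 CPM against 1.12 and 11494 CPM, and the part of free RNA in this contrast was not tested.

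The genes named for the largest differences were mostly muscle genes on the contractile side. Abra, an actin-binding activator, Fam189a2, Myo18b, Coro6, the potassium channel subunit Kcne1 and the Nodal co-receptor Tdgf1 had 0 UMIs in the progenitors of both libraries, where 3 UMIs would stand at 0.818 and 0.646 CPM. Tdgf1 was at 47.2 and 8.37 CPM in the contractile cells and Abra at 12.4 and 13.2 CPM. Fbxl22, an F-box gene of the sarcomere, was at 1.36 and 1.51 CPM against 182 and 202 CPM, and Asb2 at 0.818 and 0.431 CPM against 88.1 and 71.8 CPM. On the progenitor side, Irx1 was at 22.6 and 65.2 CPM against 5.05 and 7.67 CPM (log2 fold change 2.68, SE 0.29, edgeR adjusted p = 8.7e-06) and Irx2 at 7.90 and 61.4 CPM against 1.68 and 3.49 CPM (log2 fold change 3.57, SE 0.40, edgeR adjusted p = 1.2e-05). Crhbp, which binds corticotropin-releasing hormone, was at 7.63 and 5.38 CPM against 0.561 and 0 CPM. The heparan sulfate sulfotransferase genes Hs3st3b1 (11.7 and 12.1 CPM against 2.25 and 0.697 CPM) and Hs3st3a1 (9.81 and 7.32 CPM against 1.68 and 0.697 CPM), Pla2g4a (8.18 and 18.1 CPM against 2.81 and 0.697 CPM), Ebf3 (8.18 and 9.04 CPM against 0 and 2.79 CPM) and Itpk1 (4.91 and 4.31 CPM against 0.561 and 0 CPM) completed the set. Of these progenitor-side genes, DESeq2 called only Irx1 and Irx2, and the others had few UMIs in the contractile cells. On the contractile side, DESeq2 called neither Tdgf1 nor Coro6.

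Isl1 cells without Nkx2-5 met every other condition and numbered 410 and 802 cells. This contrast had the fewest calls, with 152 genes (1.32%) higher and 99 (0.861%) lower in the progenitors of 11495 tested, and DESeq2 called 31 and 12. At least 2-fold in both libraries were 39 and 34 of edgeR's calls. Depth was similar, with median UMIs of 17138.5 and 17214.5 against 17718 and 15892.5. Of 15 heart transcription factors, 7 were higher and none lower, and DESeq2 called 3. Hand1 was at 38.4 and 213 CPM against 14.9 and 29.9 CPM (log2 fold change 2.31, SE 0.22, edgeR adjusted p = 0.00013), Tbx20 at 11.99 and 63.1 CPM against 4.82 and 14.2 CPM (log2 fold change 1.91, SE 0.17, edgeR adjusted p = 8.8e-05) and Hand2 at 47.7 and 127 CPM against 29.9 and 44.03 CPM (log2 fold change 1.15, SE 0.14, edgeR adjusted p = 0.00095). Hand1 was not among the genes that DESeq2 called (DESeq2 adjusted p = 0.23), and its log2 ratio was 1.37 at E9.5 and 2.83 at E10.5. Gata5 (78.8 and 69.3 CPM against 47.98 and 29.2 CPM), Gata6 (103 and 126 CPM against 67.1 and 47.1 CPM), Mef2c (103 and 96.5 CPM against 80.7 and 39.4 CPM) and Smyd1 (8.72 and 19.6 CPM against 4.56 and 5.46 CPM) were higher as well.

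Of 21 BMP genes measured, 6 were higher and 2 lower than in the Isl1 cells without a UMI of Nkx2-5, and DESeq2 called 3 and 2. The ligand gene Bmp4 was at 203 and 189 CPM against 104.7 and 93.1 CPM (log2 fold change 0.96, SE 0.07, edgeR adjusted p = 1.2e-05). The BMP response genes Id1 (338 and 383 CPM against 257 and 262 CPM), Smad6 (30.5 and 30.6 CPM against 15.1 and 13.7 CPM), Smad7, Id3 and Bambi (203 and 254 CPM against 134 and 132 CPM) were higher with it. Of the same genes, the secreted BMP antagonists Grem1 (2.18 and 1.72 CPM against 15.4 and 10.1 CPM; log2 fold change -2.71, SE 0.30, edgeR adjusted p = 0.00042) and Chrdl1 (1.36 and 2.37 CPM against 9.26 and 12.95 CPM; log2 fold change -2.59, SE 0.31, edgeR adjusted p = 0.00069) were lower.

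Against the same cells, 3 of 6 smooth muscle genes were higher and none lower, and of 17 contractile genes outside the selection 4 were higher (Tnni1, Tpm1, Nebl and Nexn) and 1 lower, Smpx (8.45 and 21.3 CPM against 16.3 and 29.5 CPM). Acta2 was at 64.6 and 88.3 CPM against 25.8 and 26.6 CPM (log2 fold change 1.52, SE 0.10, edgeR adjusted p = 1.2e-05), Tagln at 39.8 and 116 CPM against 15.4 and 36.2 CPM, Nebl at 26.98 and 50.6 CPM against 10.04 and 9.39 CPM and the myosin chaperone gene Unc45b at 6.27 and 44.1 CPM against 1.96 and 8.81 CPM. Of 6 branchiomeric markers, 3 were lower and none higher. Ebf1 (19.3 and 18.5 CPM against 67.1 and 72.6 CPM; log2 fold change -1.93, SE 0.11, edgeR adjusted p = 4.9e-06) and Msc (4.36 and 4.52 CPM against 17.9 and 17.1 CPM) were lower, as was Myf5 (0.545 and 0.431 CPM against 1.69 and 6.11 CPM). Eya1 (9.81 and 19.4 CPM against 21.3 and 50.1 CPM) was lower in the progenitors too. Cxcl12 (72.2 and 276 CPM against 35.3 and 98.8 CPM), Jag1 (41.4 and 83.5 CPM against 23.5 and 33.8 CPM) and Gata3 (20.4 and 46.3 CPM against 8.73 and 15.6 CPM) were higher. Posterior genes did not favour the progenitors, since none of 11 was higher and Nr2f1 (35.2 and 34.2 CPM against 62.1 and 70.9 CPM) and Hoxb1 (14.7 and 3.88 CPM against 43.9 and 5.89 CPM) were lower. Of the 24 S phase and G2/M genes, edgeR called 0, with 0 at an unadjusted p below 0.05, and DESeq2 called 0.

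The named genes on the progenitor side included 2 FGF ligands at low counts. Fgf3 was at 3.54 and 4.09 CPM against 0.130 and 0 CPM (log2 fold change 5.88, SE 0.78, edgeR adjusted p = 0.0014) and Fgf15 at 6.54 and 4.74 CPM against 1.43 and 0.0728 CPM (log2 fold change 3.18, SE 0.58, edgeR adjusted p = 0.013), and DESeq2 called neither. The nuclear receptor gene Esrrg (1.91 and 5.38 CPM against 0.521 and 0.873 CPM), Dkk3 (2.998 and 4.95 CPM against 0.913 and 0.873 CPM) and RP23-455C13.7 (2.73 and 6.89 CPM against 0.652 and 1.31 CPM) were also named, besides Hand1 and Unc45b. On the other side stood the membrane gene Lrrn1 (1.64 and 2.37 CPM against 8.21 and 26.9 CPM; log2 fold change -3.20, SE 0.29, edgeR adjusted p = 0.00012), Vgll3 (0.273 and 1.08 CPM against 2.61 and 6.48 CPM), Cdh13 (0.545 and 0.431 CPM against 5.08 and 2.91 CPM), Fam212b (0.273 and 0.646 CPM against 2.74 and 4.08 CPM), Tslp (1.91 and 0.431 CPM against 7.69 and 5.39 CPM) and Cx3cr1 (0 and 0 CPM against 1.69 and 1.67 CPM). Cx3cr1, a macrophage marker, was thus at 0 in the progenitors and low in the other class. Of the genes given with values in this paragraph, DESeq2 called only Lrrn1.

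Lhx2 cells had at least 2 UMIs of Lhx2, no Nkx2-5, no Cdh5 and fewer than 3 contractile genes. They numbered 543 and 327 cells and were chosen for the branchiomeric side of the pharyngeal mesoderm, but also held epicardial transcripts. The epicardial marker Wt1 had a UMI in 13.3% of Lhx2 cells at E9.5 against 2.14% at E10.5, and in 3.5% and 13.2% of progenitors. The epicardial list summed to 52.0 and 37.8 CPM in Lhx2 cells. Wt1 detection in this class thus differed between the 2 libraries, and the part of such cells in the contrast was not tested. Of 11249 genes, 383 (3.40%) were higher and 323 (2.87%) lower in the progenitors, and DESeq2 called 145 and 129. At least 2-fold in both libraries were 227 and 177 of edgeR's calls. Posterior second heart field genes were mostly higher in the progenitors, with 8 of 11 higher and 1 lower. Osr1 was at 179 and 106 CPM against 6.82 and 8.92 CPM (log2 fold change 4.16, SE 0.24, edgeR adjusted p = 5.3e-05), Foxf1 at 279.6 and 113 CPM against 34.2 and 4.46 CPM (log2 fold change 3.51, SE 0.27, edgeR adjusted p = 0.00027) and Aldh1a2 at 67.9 and 41.3 CPM against 4.04 and 6.77 CPM. Tbx5 (44.7 and 31.7 CPM against 11.8 and 2.97 CPM) and Wnt2 (141 and 49.1 CPM against 29.6 and 6.11 CPM) were higher too, and Nr2f1 (35.2 and 34.2 CPM against 77.7 and 84.2 CPM) was lower. Heart transcription factors gave 8 of 15 higher and none lower, among them Gata5 at 78.8 and 69.3 CPM against 14.5 and 3.63 CPM (log2 fold change 3.02, SE 0.30, edgeR adjusted p = 0.00086) and Tbx3 at 39.5 and 36.4 CPM against 9.06 and 4.46 CPM. Of the 13 multilineage primed progenitor genes, a list the study chose on these libraries, 9 were higher and 1, Tcf21, lower.

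Of 6 branchiomeric muscle markers measured, 5 were lower in the progenitors and none higher. Myf5 was at 0.545 and 0.431 CPM against 31.1 and 53.2 CPM (log2 fold change -6.49, SE 0.29, edgeR adjusted p = 2e-05), Msc at 4.36 and 4.52 CPM against 48.2 and 103 CPM and Ebf1 at 19.3 and 18.5 CPM against 211 and 363 CPM. The anterior field was shared between the classes. Tbx1 was lower in the progenitors at 55.9 and 32.1 CPM against 223 and 142 CPM (log2 fold change -2.12, SE 0.10, edgeR adjusted p = 2e-05), as were Eya1 (9.81 and 19.4 CPM against 28.1 and 103 CPM) and Fgf10. Nkx2-6 (22.3 and 16.4 CPM against 2.42 and 2.64 CPM), Mef2c (103 and 96.5 CPM against 30.96 and 13.05 CPM), Foxc1, Foxc2 and Irx3 were higher. Signalling genes differed in both directions, with 9 higher and 3 lower of 21 BMP, 3 and 2 of 16 FGF, 5 and 2 of 24 Wnt and 3 and 1 of 10 hedgehog genes. Bmp4 was at 203 and 189 CPM against 43.5 and 35.01 CPM (log2 fold change 2.27, SE 0.10, edgeR adjusted p = 2e-05), Ptch1 at 101 and 88.7 CPM against 24.4 and 24.3 CPM (log2 fold change 1.91, SE 0.12, edgeR adjusted p = 6.3e-05), and the FGF feedback gene Dusp6 at 30.8 and 25.4 CPM against 138 and 123 CPM (log2 fold change -2.27, SE 0.11, edgeR adjusted p = 2e-05). The Wnt effectors Lef1 (42.8 and 14.2 CPM against 138 and 69.03 CPM) and Tcf7 (7.36 and 8.40 CPM against 27.1 and 28.1 CPM) were lower in the progenitors, and the Notch modifier Lfng (0.818 and 1.08 CPM against 15.3 and 20.97 CPM) was lower while Jag1 (41.4 and 83.5 CPM against 21.7 and 19.7 CPM) was higher. Cdkn1a was at 2.45 and 2.80 CPM against 22.5 and 93.8 CPM, and of the 24 S phase and G2/M genes edgeR called 0, with 1 at an unadjusted p below 0.05, and DESeq2 called 0.

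**Figure D3:**
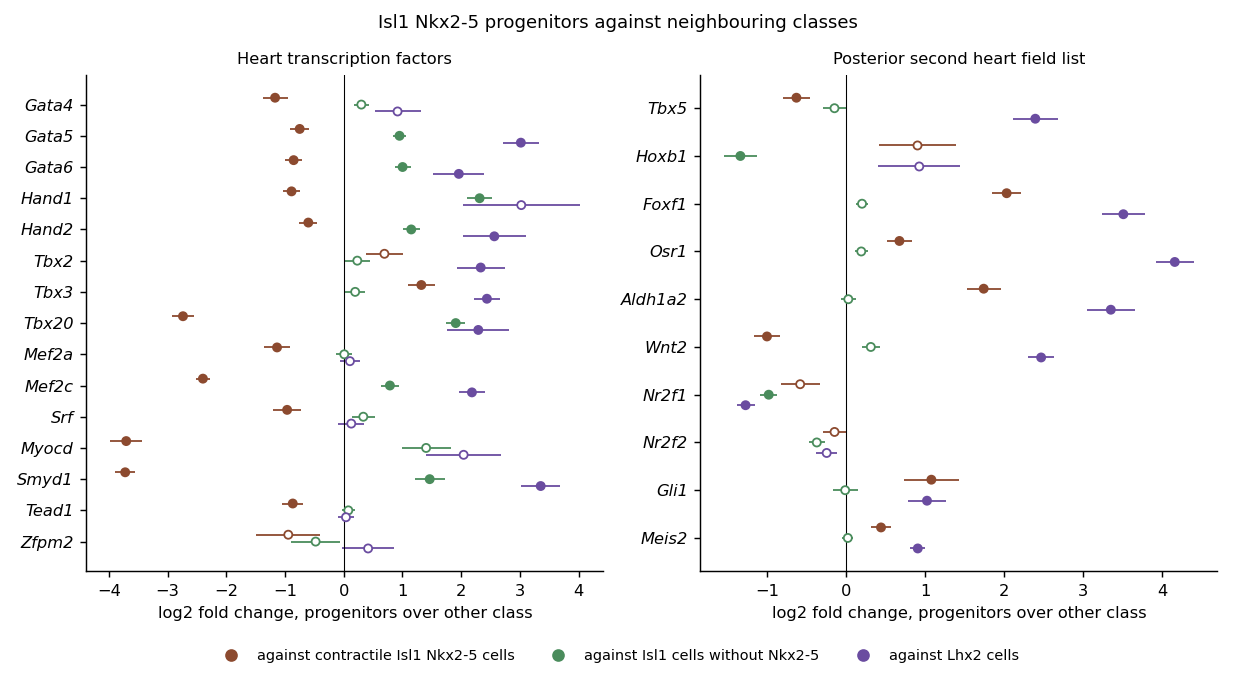
Log2 fold changes from edgeR of the Isl1 Nkx2-5 progenitors over contractile Isl1 Nkx2-5 cells (brown), Isl1 cells without Nkx2-5 (green) and Lhx2 cells (purple), with standard errors as bars, for heart transcription factors and genes of the posterior second heart field list. Filled points passed an adjusted p of 0.05, and Smyd1, Tbx20 and Mef2c lie left of 0 against contractile cells and right of 0 against both other classes.

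The genes named for the largest differences from the Lhx2 cells repeated part of the earlier set. Crhbp (7.63 and 5.38 CPM against 0 and 0.330 CPM), Fgf3 (3.54 and 4.09 CPM against 0 and 0.165 CPM) and Fgf15 (6.54 and 4.74 CPM against 0.359 and 0 CPM) were higher in the progenitors. So were the kinase gene Stk32a (9.27 and 4.09 CPM against 0.179 and 0 CPM; log2 fold change 5.78, SE 0.62, edgeR adjusted p = 0.0011), Ftcd (9.54 and 3.44 CPM against 0.269 and 0 CPM), the transporter gene Slc16a12 (2.998 and 1.94 CPM against 0.0897 and 0 CPM) and Gm26793 (2.18 and 2.80 CPM against 0 and 0.165 CPM). On the Lhx2 side, the homeobox genes Emx2 (0.545 and 0 CPM against 14.00 and 56.6 CPM), Emx1 (0.273 and 0 CPM against 12.1 and 16.2 CPM) and Uncx (0 and 0 CPM against 10.3 and 7.27 CPM) were nearly or wholly absent from the progenitors, as were Fam169b (0 and 0 CPM against 6.37 and 10.7 CPM), Cbln2 (0 and 0 CPM against 8.34 and 5.61 CPM), Smtnl1 (0 and 0 CPM against 3.59 and 4.29 CPM) and Necab1 (0 and 0 CPM against 2.24 and 3.47 CPM). DESeq2 called Crhbp, Fgf15, Stk32a and Ftcd but not Fgf3, Slc16a12 or Gm26793. On the Lhx2 side it called Emx1 and Smtnl1 but not Emx2, Uncx, Fam169b, Cbln2 or Necab1.

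The progenitors were not uniform. Cells with Tbx1 and no Tbx5 numbered 66 at E9.5 against 70 at E10.5, and cells with Tbx5 and no Tbx1 58 and 43. Both genes had UMIs in 14 and 17 cells and neither in 62 and 120. This is a cut on sparse counts and is not read as a pair of cell types. Tbx1 had a UMI in 40% and 34.8% and Tbx5 in 36% and 24% of progenitors. In Cdh5 cells Tbx1 had a UMI in 17.1% and 31.0%, Tbx5 in 7.65% and 18.8% and Fgf10 in 2.35% and 1.49%. Whether the Tbx1 and Tbx5 UMIs of Cdh5 cells were their own or free RNA was not tested. Values of both sides are therefore a description without a test. Of 9552 genes, 53 were at least 2-fold higher with the interval off 0 in both libraries on the Tbx5 side, and 74 on the Tbx1 side.

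**Figure D4:**
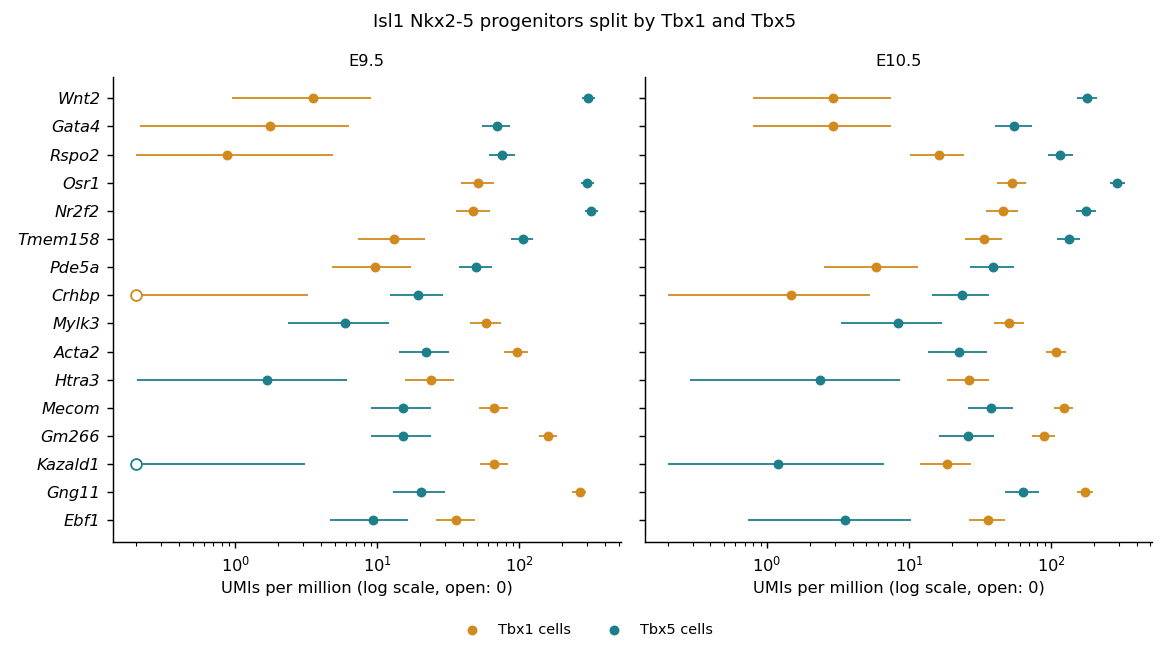
Levels (CPM, log axis, exact Poisson 95% intervals drawn down to 0.2) of the 16 named genes in progenitors with Tbx1 and no Tbx5 (orange) and with Tbx5 and no Tbx1 (teal), E9.5 left and E10.5 right, open circles standing for 0 UMIs. The upper 8 genes, led by Wnt2 and Gata4, lie to the right in Tbx5 cells and the lower 8 in Tbx1 cells in both libraries.

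Of 10 posterior genes besides Tbx5, 4 met this limit on the Tbx5 side (Wnt2, Osr1, Nr2f2 and Foxf1) and 1, Hoxb1, on the Tbx1 side. Wnt2 was at 304 and 179 CPM in Tbx5 cells and 3.50 and 2.93 CPM in Tbx1 cells, so nearly all Wnt2 of the progenitors lay outside the Tbx1 cells. Gata4 was at 68.9 and 54.5 CPM against 1.75 and 2.93 CPM, and the Wnt amplifier gene Rspo2 at 75.7 and 116 CPM against 0.876 and 16.1 CPM. Osr1 (299 and 293 CPM against 50.8 and 52.8 CPM) and Nr2f2 (321 and 175 CPM against 47.3 and 45.5 CPM) were present on both sides and higher with Tbx5. Tmem158 (105.1 and 133 CPM against 13.1 and 33.7 CPM), the phosphodiesterase gene Pde5a (49.6 and 39.1 CPM against 9.64 and 5.87 CPM) and Crhbp (19.3 and 23.7 CPM against 0 and 1.47 CPM) went with them. From the lists, Foxf1, Gata5, Sfrp5, Smpx, Tbx18 and Ryr2 met the same limit.

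Of 12 anterior genes besides Tbx1, 5 met the limit on the Tbx1 side and 1 on the Tbx5 side. The myosin light chain kinase gene Mylk3 was at 57.8 and 50.6 CPM in Tbx1 cells and 5.89 and 8.30 CPM in Tbx5 cells, and Acta2 at 95.5 and 109 CPM against 21.9 and 22.5 CPM. Gng11, a G protein subunit, was at 265 and 173 CPM against 20.2 and 62.8 CPM, and the zinc finger factor Mecom at 65.7 and 123 CPM against 15.1 and 37.9 CPM. Htra3 (23.7 and 26.4 CPM against 1.68 and 2.37 CPM), Kazald1 (66.6 and 18.3 CPM against 0 and 1.19 CPM), Gm266 (159 and 88.8 CPM against 15.1 and 26.1 CPM) and Ebf1 (35.9 and 35.9 CPM against 9.25 and 3.56 CPM) completed the 8 named. Among list genes, Nkx2-6 (44.7 and 24.2 CPM against 0.841 and 5.93 CPM), Eya1, Gata3, Sema3c (35.9 and 76.3 CPM against 10.9 and 20.2 CPM), Des, Tagln, Mpped2, Irx3, Irx5 and Hand1 (33.3 and 228 CPM against 10.9 and 102 CPM) lay on this side in both libraries. Of 6 smooth muscle genes, 2 (Acta2 and Tagln) met the limit on the Tbx1 side and none on the Tbx5 side.

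Within the progenitors, several cardiac regulators outside the selection, picked after values were seen, followed the number of contractile genes at 2 or more UMIs. Cells with 0, 1 and 2 such genes had median depths of 15506, 17575 and 20464 UMIs at E9.5 against 16659, 18998 and 17932 at E10.5, so the steps also followed depth at E9.5. Markers of other cells moved with the last step at E10.5. Hbb-y was at 6167, 2758 and 23268 CPM and Hba-x at 2058, 803 and 8479 CPM there, and 24 of the 31 Fcer1g UMIs lay in cells with 2 contractile genes. Their part in the step values was not tested. Gata6 was at 78.1, 108 and 150.1 CPM over the steps at E9.5 against 95.5, 149.7 and 263 CPM at E10.5, where the contractile cells stood at 159 and 251 CPM. Gata4 was at 24.9, 36.9 and 44.3 CPM and at 12.2, 35.2 and 56.8 CPM. The GATA factors in cells with 2 contractile genes were thus close to their level in contractile cells. The muscle genes stepped up later. Smyd1 was at 7.40, 8.14 and 13.6 CPM and 11.5, 21.1 and 64.3 CPM, against 123 and 239 CPM in contractile cells. The gap was larger for Csrp3, a Z-disc protein gene, at 2.02, 4.38 and 10.2 CPM and 3.53, 9.04 and 22.7 CPM against 480.0 and 649 CPM.

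**Figure D5:**
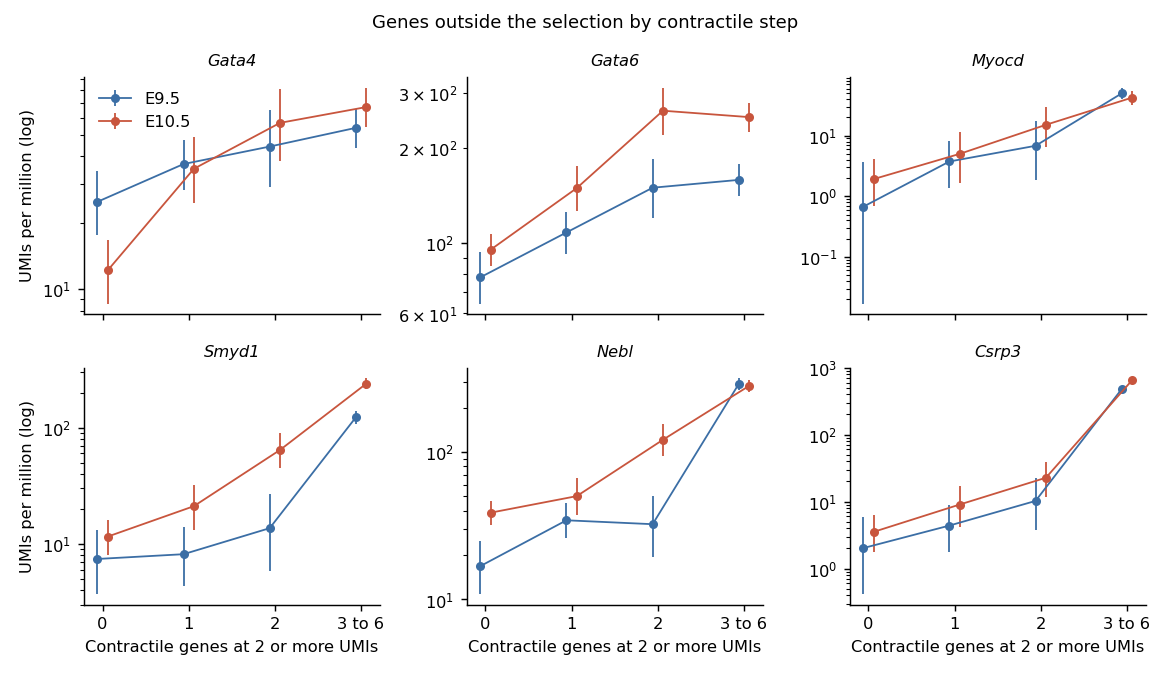
Levels of 6 genes outside the selection, picked after values were seen, against the number of contractile genes at 2 or more UMIs (0, 1 and 2 within the Isl1 Nkx2-5 progenitors, 3 to 6 in contractile cells), as CPM on a log axis with exact Poisson 95% intervals, E9.5 in blue and E10.5 in red. Gata4 and Gata6 approach the contractile level by 2 genes, while Smyd1 and Csrp3 differ most between 2 genes and the contractile cells, whose class is wider than a single step.

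The stages differed at the later steps. At E10.5 Mef2c was at 50.95, 103 and 352 CPM over the steps and Tbx20 at 35.6, 82.4 and 189 CPM, while at E9.5 they were at 96.2, 104 and 116 CPM and 14.8, 5.63 and 22.2 CPM. Hand1 ran against the steps at E9.5, at 67.3, 18.8 and 18.8 CPM, and with the last step at E10.5, at 197, 169 and 388 CPM. Cdkn1c was at 660.3, 436 and 443 CPM at E9.5 against 663, 867 and 1173 CPM at E10.5. The S phase gene Mcm5 was at 140.0, 162 and 135 CPM and 129, 100.5 and 83.3 CPM, with 74.7 and 42.5 CPM in contractile cells. With 28 and 24 cells in the last step and 1 library per stage, these are values without a test.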

How the data were processed

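Single cells were captured with 10x Chromium 3' v2 chemistry. Per the labels, the authors counted UMIs per gene and cell with Cell Ranger 3.1.0 on mm10, and deposited these raw counts, without normalization, for 27998 genes. No genome of that build was used here, and positions come from RefSeq GRCm38.p6.

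Cells with 1000 or more genes and at most 10% mitochondrial UMIs were retained. The members and gene lists were chosen with earlier results of these data known. Doublets were kept, since Scrublet (scanpy 1.11.5) marked 1 and 92 cells of the late libraries, and a fixed-rate removal was an alternative. Sums were scaled to their totals. Stage ratios had exact conditional binomial 95% intervals for counting error only, and genes needed 20 UMIs over both sums. With 1 library per stage, no stage p-value was computed.

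Class contrasts used edgeR 4.0.16 (glmQLFit and glmQLFTest, TMM scaling, filterByExpr, library as block, Benjamini-Hochberg threshold 0.05) in R 4.3.3. DESeq2 1.42.0, other scalings, filters, thinning to 5000 UMIs and stricter selections were alternatives. On simulated counts, 96.5%, 96.0% and 98.5% of 200 genes changed 4-fold were recovered in the contractile, Isl1 without Nkx2-5 and Lhx2 contrasts, run on 10234, 11527 and 11229 genes, with 12, 9 and 10 false calls. The changed genes all had 200 or more UMIs. All genes shared a single spread setting (dispersion 0.05), and no library effect was simulated. These figures therefore do not cover calls at lower counts or differences between the libraries. The genes named are the 12 per direction whose stage interval stays farthest from 0, the 8 per direction with the largest fold change among genes called and at least 2-fold in both libraries for each class, the 8 per direction whose smaller library ratio (CPM + 10) between Tbx1 and Tbx5 cells is largest, and list genes. Some genes that these rules named are not reported here, in the text or the figures, though counts include them.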

Additional observations from a re-analysis of the deposited data

Results flagged for a closer look

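Several genes lay on opposite sides of 0 in the E9.5 and E10.5 libraries under the same contrast, at least 2-fold each way with intervals off 0. With 1 library per stage, the difference between the stages was not tested for any of them. Against Isl1 cells without Nkx2-5, the log2 ratio of the progenitors was at most -4.17 at E9.5 (a bound set by 3 UMIs, since none was found) and 6.53 at E10.5 for Ppbp, and -4.45 and 3.58 for Pf4. The E10.5 values rest on the single cell that held 98.9% and 98.0% of those UMIs. Against Lhx2 cells, the epicardial markers Wt1 (-2.40 and 1.62) and Krt19 (-1.29 and 1.14) were lower in the E9.5 progenitors and higher in the E10.5 progenitors. The semaphorin co-receptor Nrp1 (-1.24 and 1.77) and the Wnt inhibitor Sfrp5 (-2.09 and 1.48) lay the same way. Cxcl13 was the reverse, at 2.27 and -1.66. Within the progenitors, the Wnt amplifier Rspo3 was higher in Tbx5 cells at E9.5 (1.94) and higher in Tbx1 cells at E10.5 (-1.77, Tbx5 over Tbx1).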

How the results depend on the processing

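The stage counts and class calls depended on several settings. The log2 ratio of the progenitor share was -0.12 in cells thinned to 5000 UMIs and selected again (55 and 101 cells) and 0.036, so reversed, in progenitors without a contractile gene at 2 or more UMIs. It was -0.47 without cells of over 20% haemoglobin UMIs, a setting chosen after seeing the data. Thinning left 218 genes higher and 129 lower at E10.5, in fewer cells and with fewer UMIs per cell. Of 722 alternative stage values for 91 named genes, 675 kept direction and side, 43 lost the 2-fold limit or the interval, and 4 reversed: Tagln (-0.0024) and Hapln1 (0.80) on thinning, and Cnn1 and Lrrn4 (both -0.071) without contractile genes. Leaving out the cell with the most UMIs of each gene was also added after seeing the data and reversed none of them.

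Class calls are given as higher and lower in the progenitors. Against contractile cells, DESeq2 called 123 and 458, edgeR without the library block 6 and 180, and thinned cells gave 41 and 113. Against Isl1 cells without Nkx2-5, DESeq2 called 31 and 12, edgeR without the block 0 and 0 (119 and 99 at an unadjusted p below 0.05), no filter on low counts 304 and 261, Nkx2-5 at 2 or more UMIs 311 and 195, and thinning 103 and 37. Against Lhx2 cells, DESeq2 called 145 and 129, edgeR without the block 0 and 0 (485 and 396 unadjusted), no filter 710 and 630, doublet removal 211 and 188, and thinning 167 and 100. The cause of each shift was not tested. For 48 named class genes, 209 of 285 alternative values kept direction and side, 76 lost the threshold and 0 reversed, and most losses came from DESeq2 (30) and the fit without the block (43). Leaving out a library leaves 1 sum per class and no residual degree of freedom, so both libraries' values are given instead. Both libraries enter each class contrast as a pair through the library block, and the labels carry no replicate numbers.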
